A study of Danio rerio with 6 samples.

Results

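The embryonic globin copies are 10 genes, matched by zebrafish symbol or Ensembl ID, of the 32520 genes in the count table. There are 6 alpha-type copies (hbae1.1, hbae1.2, hbae1.3, hbae3, hbae4 and hbae5) and 4 beta-type copies (hbbe3 and the Ensembl IDs ENSDARG00000087390, ENSDARG00000115405 and ENSDARG00000045143). The gene name table gives these 3 IDs the human-style name HBE1. The study profiled whole zebrafish at 72 hours post-fertilization (hpf) by bulk RNA-seq of poly-A transcripts, and asked how loss of miR-34a, a microRNA induced by p53, alters the transcriptome. The *miR-34a-/-* group had 3 libraries, and so had the wild-type group, each from a pool of 30 embryos according to the design text. All embryos of either genotype carried the casper background, which lacks most pigment, and no library was treated with any agent. The mutants carried a CRISPR/Cas9 deletion of the *miR-34a* gene and were maternal-zygotic embryos of a homozygous line kept apart, and wild-type embryos came from other parents. The genotype therefore cannot be told apart from other differences between the lines.

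Hemoglobin is the oxygen carrier of red blood cells, built from alpha-type and beta-type globin chains that each hold a heme group. Zebrafish carry many globin genes, in which alpha and beta copies lie side by side in a major and a minor cluster, and each stage of life uses its own copies. At the larval stage the circulating red cells still express embryonic copies, and adult copies take over later. Balanced supply of alpha and beta chains matters because unpaired chains damage the red cell. In the RefSeq gene order of the GRCz12tu assembly, used for neighbours only because the counts are on another build, hbae1.1, hbae1.2, hbae1.3 and hbae3 lay in 1 cluster, in which a beta gene precedes each of the hbae1 copies and hbae3 follows hbae1.3. In the same order hbae4, hbbe3 and hbae5 lay in the other cluster, with hbbe2 between hbbe3 and hbae5. The 3 beta-type IDs had no matching entry and were not placed.

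The libraries held 10507151 to 16369150 counts in *miR-34a-/-* and 10273343 to 15856562 in wild-type. MIR34A had 0 counts in all of them, so the labels could not be checked on the deleted gene in poly-A RNA. *miR-34a-/-* replicate 1 stood apart. Over the 500 most variable genes it lay 1.33 and 1.57 (root mean square log2 difference) from replicates 2 and 3 of its genotype, which were 0.87 from each other, while the wild-type libraries lay 0.73 to 0.82 from one another. Calls on the globin copies that change without it are given both ways. For the lists of other genes, no values without it are given. In whole embryos more red cells and more globin RNA per red cell cannot be told apart.

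The 10 copies together had 3928, 3467 and 4281 CPM (counts relative to library size, which was scaled by TMM, the trimmed mean of M-values) in *miR-34a-/-* replicates 1, 2 and 3, against 1315, 1305 and 1206 CPM in wild-type replicates 1, 2 and 3. Every mutant library was thus far above every wild-type library. The copies took 0.381% ± 0.038 of all raw counts in *miR-34a-/-* and 0.130% ± 0.006 in wild-type (SD, n = 3 each), a ratio of 2.93, with an exact two-sided permutation p of 0.1, which is the lower limit for 3 libraries a side. Of 10 copies tested, 9 were called higher and 0 lower in *miR-34a-/-* (edgeR quasi-likelihood test over all genes, adjusted p under 0.05 and fold above 1.5). Over all 19240 genes tested, 1.88% were called, 0.925% higher and 0.956% lower. All 9 also passed the 2-fold threshold, which 1.16% of all genes passed, 0.567% upwards. The median log2 fold change of the 10 copies was 1.62, against -0.01 over all genes.

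**Figure D1:**
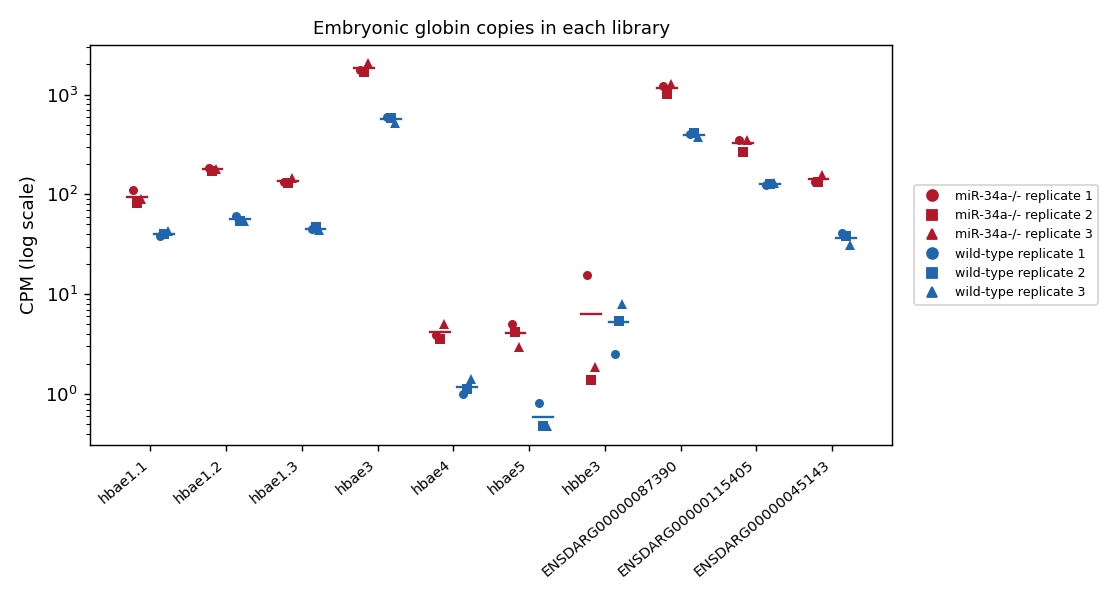
CPM (log axis) of each globin copy in the 3 *miR-34a-/-* libraries (red) and the 3 wild-type libraries (blue), with a bar at each mean and a marker shape for each replicate number. The mutant libraries lie above the wild-type libraries for 9 copies, while the genotypes overlap in hbbe3.

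Among the alpha copies hbae3 took the most counts. It had 1778, 1663 and 2078 CPM in *miR-34a-/-* replicates 1 to 3, against 601.7, 575.4 and 520.4 CPM in wild-type replicates 1 to 3. The genotypes did not overlap, and hbae3 rose by a log2 fold change of 1.70 ± 0.10 (standard error; adjusted p in edgeR = 2.1e-05). Over the 19240 genes tested, 21.2% had genotypes that did not overlap and 11% had all 3 mutant libraries above all 3 wild-type libraries, as 9 of the 10 globin copies did. Of the rise in summed globin CPM between the genotype means, hbae3 made up 48.7%.

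Among the tandem alpha copies, hbae1.1 rose less than hbae1.2 and hbae1.3, which rose by similar amounts. hbae1.1 had 111.3, 82.8 and 90.5 CPM in *miR-34a-/-* replicates 1 to 3, against 38.6, 40.1 and 42.7 CPM in wild-type replicates 1 to 3, a log2 fold change of 1.23 ± 0.11 (standard error; adjusted p in edgeR = 0.000306). This was the smallest rise among the 9 called copies. hbae1.2 had 185.8, 171.8 and 178.3 CPM in *miR-34a-/-* libraries, against 61.1, 54.6 and 54.2 CPM in wild-type libraries, a log2 fold change of 1.65 ± 0.08 (adjusted p = 1.4e-05). hbae1.3 had 131.5, 131.4 and 146.2 CPM in *miR-34a-/-* libraries, against 45.2, 47.2 and 43.6 CPM in wild-type libraries, a log2 fold change of 1.59 ± 0.08 (adjusted p = 1.4e-05). No library of 1 genotype reached the range of the other in any of the 3 copies.

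The minor-cluster alpha copies hbae4 and hbae5 were near the lower limit of the depth. Transcripts of hbae4 were counted 44, 36 and 78 times in *miR-34a-/-* replicates 1 to 3, against 16, 12 and 15 times in wild-type replicates 1 to 3. Its level was 4.16 ± 0.78 CPM in *miR-34a-/-* and 1.18 ± 0.22 CPM in wild-type (SD, n = 3 each), with a log2 fold change of 1.84 ± 0.26 (standard error; adjusted p in edgeR = 0.00514). Without wild-type replicate 1 its adjusted p was 0.0504, which missed the threshold, and over its 11 alternatives it ran from 0.000316 to 0.0504. hbae5 was counted 57, 43 and 46 times in *miR-34a-/-* libraries, against 13, 5 and 5 times in wild-type libraries, at 4.08 ± 1.06 and 0.58 ± 0.19 CPM. Its log2 fold change of 2.71 ± 0.34 was the largest of the 10 copies (adjusted p = 0.00237), although the few wild-type counts leave it wide. Over 11 alternatives it stayed between 2.50 and 3.06, with adjusted p-values up to 0.0244.

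Of the beta copies ENSDARG00000087390 took the most counts. It had 1212, 1007 and 1270 CPM in *miR-34a-/-* replicates 1 to 3, against 400.6, 415.7 and 376.1 CPM in wild-type replicates 1 to 3, and rose by a log2 fold change of 1.55 ± 0.09 (standard error; adjusted p in edgeR = 3.08e-05). It made up 29.3% of the rise in summed CPM. ENSDARG00000115405 had 351.3, 267.5 and 351.6 CPM in *miR-34a-/-* libraries, against 123.1, 127.3 and 128.5 CPM in wild-type libraries, a log2 fold change of 1.36 ± 0.10 (adjusted p = 0.000167). ENSDARG00000045143 had 133.8, 133.7 and 157.0 CPM in *miR-34a-/-* libraries, against 40.7, 37.9 and 31.0 CPM in wild-type libraries, a log2 fold change of 1.95 ± 0.11 (adjusted p = 2.1e-05). The genotypes were separate in all 3, and ENSDARG00000045143 had the largest fitted rise of the beta copies.

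The exception was hbbe3, the beta copy next to hbae4. It was counted 175, 14 and 29 times in *miR-34a-/-* replicates 1, 2 and 3, against 41, 57 and 84 times in wild-type replicates 1, 2 and 3. In CPM this was 15.6, 1.37 and 1.87 in *miR-34a-/-*, against 2.54, 5.40 and 7.98 in wild-type, so that 1 mutant library lay above all wild-type libraries and the others lay below them. The log2 fold change was 0.26 ± 0.77 (standard error; adjusted p in edgeR = 0.905). Without *miR-34a-/-* replicate 1 hbbe3 was called lower, at -1.61 ± 0.40 (adjusted p = 0.0119), where 7.74% of all genes tested were called either way. Its direction also turned with the replicate number as a block (-0.26, adjusted p = 0.928) and without wild-type replicate 1 (-0.11, adjusted p = 0.973). The 6 values of this copy thus spread more within a genotype than between the genotypes.

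Photoreceptor genes, which mark the maturing retina, moved as a sum in the direction opposite to hbbe3 across the libraries. Their list was included because a library was already known to stand apart in these genes. Summed over the 11 matched IDs (none at 0 in every library), they had 171.8, 722.9 and 725.0 CPM in *miR-34a-/-* replicates 1, 2 and 3, against 668.6, 438.7 and 282.3 CPM in wild-type replicates 1, 2 and 3. The library with the lowest photoreceptor sum, *miR-34a-/-* replicate 1, had the most hbbe3, and in wild-type replicate 3, with the next lowest sum, hbbe3 was the next highest. In CPM over the 6 libraries, hbae3 and ENSDARG00000087390, which took most of the globin counts, did not follow that order. Within each genotype the share of hbae3 in the counts of the 10 copies rose with the photoreceptor sum. It was 45.3%, 48.0% and 48.5% in *miR-34a-/-* replicates 1 to 3, against 45.7%, 44.1% and 43.1% in wild-type replicates 1 to 3. The share of hbae1.1 fell with that sum in each genotype, and that of ENSDARG00000087390 did not keep the order in either. The part of whatever sets the photoreceptor sum in the hbbe3 result, the shares and the alpha to beta ratio was not tested.

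**Figure D2:**
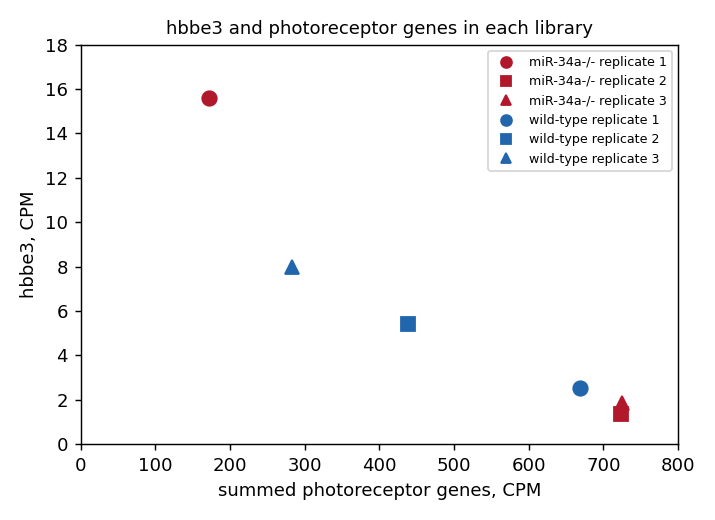
hbbe3 CPM (vertical axis) against the summed CPM of photoreceptor genes (horizontal axis) in each of the 6 libraries, *miR-34a-/-* in red and wild-type in blue. The libraries run from 15.6 CPM of hbbe3 at a photoreceptor sum of 171.8 CPM down to 1.37 CPM at 722.9 CPM.

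The balance of the chains was then read as summed alpha counts over summed beta counts within each library, a ratio that does not depend on library scaling. It was 1.29, 1.46 and 1.40 in *miR-34a-/-* replicates 1, 2 and 3, against 1.32, 1.23 and 1.22 in wild-type replicates 1, 2 and 3. The genotypes overlapped, because *miR-34a-/-* replicate 1 lay below wild-type replicate 1. These libraries had the lowest photoreceptor sum among the mutants and the highest among the wild-type libraries. The mean was 1.39 ± 0.08 in *miR-34a-/-* and 1.26 ± 0.06 in wild-type (SD, n = 3 each), a difference of 0.14 in the log2 ratio (exact two-sided permutation p = 0.2, of 20 assignments). Both sides rose together: alpha copies summed to 2258 ± 225 CPM in *miR-34a-/-* and 710.0 ± 43.5 CPM in wild-type, a ratio of 3.18, and beta copies to 1634 ± 198 and 565.6 ± 21.4 CPM, a ratio of 2.89. Without *miR-34a-/-* replicate 1 the difference in the log2 ratio was 0.19 and the groups no longer overlapped (exact permutation p = 0.1, the smallest possible with these libraries). Without wild-type replicate 1 the difference was 0.18, also without overlap (exact permutation p = 0.2). Leaving out any other single library gave 0.10 to 0.13 (exact permutation p = 0.3 each). The counts were not divided by transcript length, so the ratio compares genotypes and does not say how many alpha transcripts there were per beta transcript.

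**Figure D3:**
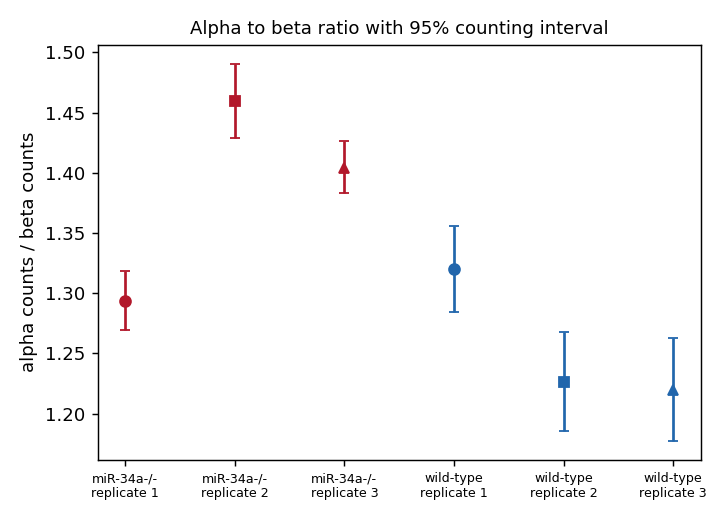
Ratio of summed alpha to summed beta globin counts in each library, *miR-34a-/-* in red and wild-type in blue, with bars for the 95% interval from counting error (the vertical axis does not start at 0). *miR-34a-/-* replicates 2 and 3, at 1.46 and 1.40, lie above all wild-type libraries, while *miR-34a-/-* replicate 1 at 1.29 lies among them.

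The composition of the globin pool, the share of each copy in the counts of all 10, was far more alike between the genotypes than the pool's size. hbae3 took 47.3% ± 1.8 of globin counts in *miR-34a-/-* and 44.3% ± 1.3 in wild-type (SD, n = 3 each), and the genotypes overlapped (exact permutation p = 0.2). That overlap came from *miR-34a-/-* replicate 1, at 45.3%, and wild-type replicate 1, at 45.7%. Replicates 2 and 3 had 48.0% and 48.5% in *miR-34a-/-* and 44.1% and 43.1% in wild-type. ENSDARG00000087390 took 29.9% ± 0.9 in *miR-34a-/-* and 31.2% ± 0.7 in wild-type, also with overlap (exact permutation p = 0.2). Here too the overlap came from *miR-34a-/-* replicate 1, at 30.9%, and wild-type replicate 1, at 30.5%. Replicates 2 and 3 had 29.0% and 29.7% in *miR-34a-/-* and 31.8% and 31.2% in wild-type. hbae3 and ENSDARG00000087390 led the alpha and the beta side in every library. Shares of hbae1.2, hbae1.3 and hbae4 overlapped between genotypes as well, at 4.62%, 3.52% and 0.106% in *miR-34a-/-* and 4.44%, 3.56% and 0.0935% in wild-type.

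In 4 copies the shares of the genotypes did not overlap. No rate over all genes was computed for such shares. In CPM, the genotypes did not overlap in 21.2% of all genes tested. The share of ENSDARG00000115405 was lower in the mutants, at 8.94%, 7.72% and 8.21% in *miR-34a-/-* replicates 1 to 3, against 9.36%, 9.75% and 10.7% in wild-type replicates 1 to 3. hbae1.1 was lower too, at 2.83%, 2.39% and 2.11% in *miR-34a-/-*, against 2.94%, 3.07% and 3.54% in wild-type. The share of ENSDARG00000045143 was higher, at 3.41%, 3.86% and 3.67% in *miR-34a-/-*, against 3.10%, 2.90% and 2.57% in wild-type. That of hbae5 was also higher, at 0.129%, 0.121% and 0.0693% in *miR-34a-/-*, against 0.0613%, 0.0363% and 0.0394% in wild-type. In hbae1.1 and hbae5 the nearest libraries of the genotypes had overlapping counting intervals. For hbae1.1 the 95% Wilson interval was 2.68% to 2.99% in *miR-34a-/-* replicate 1 and 2.72% to 3.17% in wild-type replicate 1, and for hbae5 it was 0.0519% to 0.0924% in *miR-34a-/-* replicate 3 and 0.0358% to 0.105% in wild-type replicate 1. Each of these 4 differences had an exact permutation p of 0.1, the smallest possible, and an adjusted value of 0.194 over the 31 sums, shares and ratios tested in this way.

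**Figure D4:**
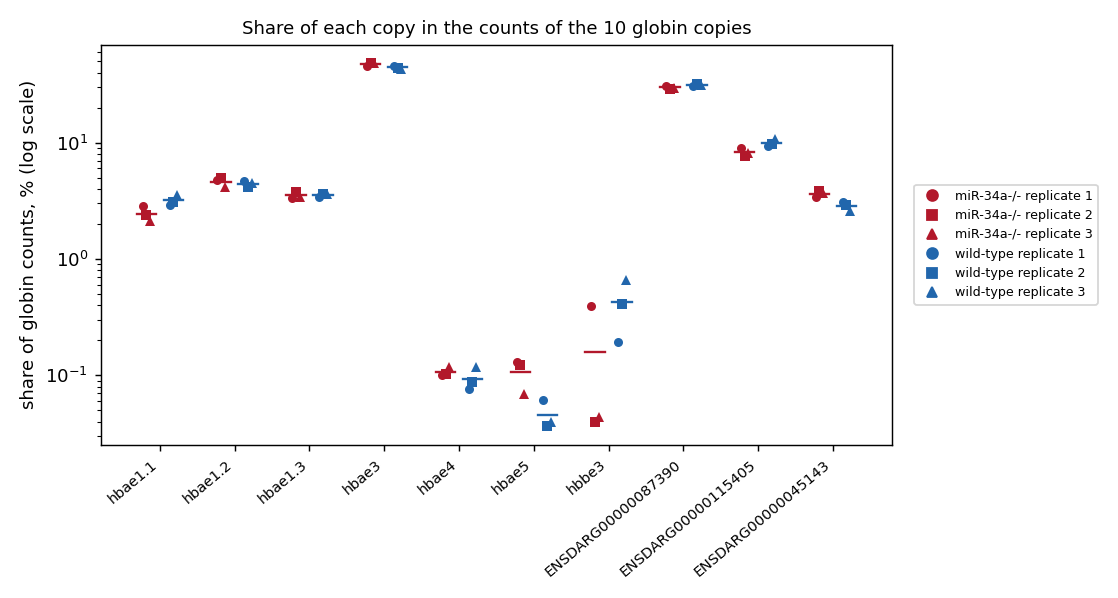
Share of each copy in the counts of the 10 globin copies (percent, log axis) in the 3 *miR-34a-/-* libraries (red) and the 3 wild-type libraries (blue), with a bar at each mean. The shares of hbae3 and ENSDARG00000087390 overlap between genotypes, whereas those of hbae1.1 and ENSDARG00000115405 are lower and those of hbae5 and ENSDARG00000045143 higher in all mutant libraries.

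A fit over all genes with the globin pool as library size set each copy against the pool with a model. Its spread was set with information from all genes and includes that of the pool. Its standard errors and p-values therefore do not measure the spread of each share itself. For hbae3, with shares of 47.3% ± 1.8 in *miR-34a-/-* and 44.3% ± 1.3 in wild-type (SD), the fit gave log2 0.09 ± 0.12 (standard error). In that fit 98.8% of all genes differed at an adjusted p under 0.05, 98.7% being lower and 0.114% higher, since the pool itself was larger in the mutants. The adjustment over all genes therefore barely changed the p-values and gave little control over the 10 copies. Unadjusted edgeR p-values were 0.00753 for hbae5, 0.0152 for ENSDARG00000045143, 0.0129 for hbae1.1 and 0.0147 for hbbe3. By this fit, 4 of the 10 copies differed from the pool. hbae5 and ENSDARG00000045143 rose more than the pool, by log2 1.13 ± 0.39 and 0.35 ± 0.13 (standard error; adjusted p in edgeR = 0.00773 and 0.0155). hbae1.1 and hbbe3 changed less than the pool, at -0.38 ± 0.14 and -1.37 ± 0.52 (adjusted p = 0.0132 and 0.0151). The hbbe3 shares overlapped, however, at 0.397%, 0.0395% and 0.0437% in *miR-34a-/-* replicates 1 to 3, against 0.193%, 0.413% and 0.662% in wild-type replicates 1 to 3. Their exact permutation p was 0.2, so the hbbe3 call rests on the model alone. ENSDARG00000115405, at -0.26 ± 0.13, missed the threshold (adjusted p = 0.0545) and passed it without *miR-34a-/-* replicate 1 (-0.32, adjusted p = 0.0353). Its shares did not overlap between the genotypes.

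The calls on these shares changed to an unequal degree between alternatives. hbae5 kept an adjusted p under 0.05 in all 10 alternatives (up to 0.0380), hbae1.1 in 9, hbbe3 in 8 and ENSDARG00000045143 in 7. For hbbe3 the standard error was 0.52 in the main fit to the pool and 0.25 with no low-count filter, at the same log2 value of -1.37. The p-values of hbbe3 therefore depend on how the fit sets the spread. Without wild-type replicate 3 hbae5 alone differed from the pool, hbae1.1, hbbe3 and ENSDARG00000045143 being at -0.30, -0.90 and 0.28 on the log2 scale, in their directions of before, with adjusted p-values of 0.0908, 0.0868 and 0.104. Without *miR-34a-/-* replicate 2 hbbe3 also missed it (adjusted p = 0.247), and without *miR-34a-/-* replicate 1 its log2 value relative to the pool was -3.27. With the replicate block ENSDARG00000045143 kept its log2 value, at 0.35 ± 0.18 (SE), and had an adjusted p of 0.0510.

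Ratios between close copies were formed from the same counts as the shares and are no independent evidence. Within the hbae1 group, hbae1.1 held 26.0%, 21.5% and 21.8% of the counts in *miR-34a-/-* replicates 1 to 3, against 26.6%, 28.3% and 30.4% in wild-type replicates 1 to 3, and hbae1.2 held 43.4%, 44.5% and 43.0% in *miR-34a-/-*, against 42.2%, 38.5% and 38.6% in wild-type. The genotypes touched closely but did not overlap in either (exact permutation p = 0.1). On the beta side the counts of ENSDARG00000087390 over those of ENSDARG00000115405 were 3.45, 3.76 and 3.61 in *miR-34a-/-*, against 3.25, 3.27 and 2.93 in wild-type (exact permutation p = 0.1). Copies of this family are close in sequence, and how reads with several matches were counted is not given in the sources used here, so a shift between copies is less certain than the sum.

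Libraries of 1 genotype also differed in composition by more than counting error. The chi-square per degree of freedom over the 10 copies was 28.5 among the *miR-34a-/-* libraries and 5.74 among the wild-type libraries, where counting error alone gives about 1, and 22.1 over all 6. Larger counts raise this value, and the mutants had the larger globin counts. It was not split by copy. hbbe3, a small part of the pool, was very uneven among *miR-34a-/-* replicates 1 to 3, at 175, 14 and 29 counts. The mutant value therefore does not describe the larger copies alone.

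Outside the 10 copies, 6 further IDs carry a hemoglobin name. ENSDARG00000113599, also named HBE1, was tested and had 101.8 ± 18.3 CPM in *miR-34a-/-* and 50.9 ± 11.0 CPM in wild-type (SD, n = 3 each), a log2 fold change of 1.01 ± 0.16 (standard error; adjusted p in edgeR = 0.00995). That rise was smaller than any fitted among the 9 called copies. Its share of all hemoglobin counts was 2.54% ± 0.22 in *miR-34a-/-* and 3.86% ± 0.99 in wild-type, without overlap (exact permutation p = 0.1). The adult alpha genes hbaa1 and hbaa2 had 5 counts over all libraries, 2 IDs named HBE1 had 0, and the last, ENSDARG00000069734, had 18. With these IDs added, the difference in the log2 alpha to beta ratio was 0.18 (exact permutation p = 0.2).

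Genes that act in the same cells were read from lists. Of 15 tested on a list of globin gene regulators, 5 were called higher and 0 lower, against 0.925% and 0.956% of all genes tested, and the median log2 fold change was 0.62 (-0.01 over all genes). gata1a, the erythroid transcription factor, had 1.76 ± 0.38 CPM in *miR-34a-/-* and 0.51 ± 0.18 CPM in wild-type (SD, n = 3 each; log2 fold change 1.85 ± 0.37, edgeR adjusted p = 0.0316). Its wild-type level was near the lower limit of the depth, as 3 counts were 0.189 to 0.292 CPM in those libraries. hemgn, an erythroid nuclear protein, rose by 1.48 ± 0.17 (adjusted p = 0.00171), the zinc finger gene blf by 1.29 ± 0.23 (adjusted p = 0.0157) and the Krüppel-like factor klf3 by 0.84 ± 0.18 (adjusted p = 0.0369). The other called gene, cahz, encodes a carbonic anhydrase of red cells and is no regulator (0.94 ± 0.09, adjusted p = 0.000476). klf1, the erythroid factor known in mammals for switching on beta globin, was at 0.97 ± 0.30 and was not called (adjusted p = 0.15). Its level of 1.42 ± 0.13 CPM in *miR-34a-/-* and 0.72 ± 0.05 CPM in wild-type (SD) was also near the lower limit of the depth. klf17 was at 0.15 ± 0.20 (adjusted p = 0.776). bcl11ab and sox6, whose mammalian relatives silence embryonic globin genes, were at -0.16 ± 0.20 and -0.19 ± 0.08 (adjusted p = 0.757 and 0.273).

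In the heme list and in the membrane list 1 gene each was called. On the list of heme synthesis and iron supply, 1 of 13 tested was called, alas2, the first enzyme of erythroid heme synthesis, where 1.88% of all genes were called, 0.925% higher. It had 37.3 ± 5.9 CPM in *miR-34a-/-* and 13.9 ± 2.0 CPM in wild-type (SD, n = 3 each; log2 fold change 1.43 ± 0.14, edgeR adjusted p = 0.000658). blvrb, a biliverdin reductase, passed the p threshold (adjusted p in edgeR = 0.0461) and missed the fold threshold, at 0.49. The median of this list was 0.09, and 10 of the 13 had a positive log2 fold change. tfr1a, also on the red cell marker list, did not rise, at -0.12 ± 0.27 (adjusted p in edgeR = 0.87). slc25a37, on the same marker list, did not pass the filter on low counts. It had 0.78 ± 0.29 CPM in *miR-34a-/-* and 0.82 ± 0.36 CPM in wild-type (SD, n = 3 each). On the list of red cell membrane genes 1 of 6 tested was called higher, against the same 0.925% of all genes. This was epb41b, which encodes a membrane skeleton protein, at 12.5 ± 1.1 CPM in *miR-34a-/-* and 4.12 ± 0.88 CPM in wild-type (log2 fold change 1.59 ± 0.18, adjusted p = 0.00118), and the median was 0.04. Several genes of these lists are also expressed outside blood, and the study itself picked out gata1a, hemgn and alas2 as red cell genes, so their direction is not independent evidence.

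Markers of other cells were examined beside the globins. Of the 5 tested leukocyte genes, all with a positive log2 fold change, 0 were called (1.88% over all genes), their median was 0.59, and their sum was 39.9 to 43.0 CPM in *miR-34a-/-* and 25.8 to 28.6 CPM in wild-type, without overlap. None of the 5 was at 0 in every library. The actin-binding protein gene coro1a passed the p threshold (adjusted p in edgeR = 0.0391) and missed the fold threshold, at a log2 fold change of 0.56. The 3 tested endothelial genes had a median of -0.09, with 0 called and sums of 95.6 to 106.1 CPM in *miR-34a-/-* and 99.9 to 103.2 CPM in wild-type. The photoreceptor list had 10 tested IDs, a median of -0.05 and 0 called. The part of leukocytes in the globin result was not tested.

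**Figure D5:**
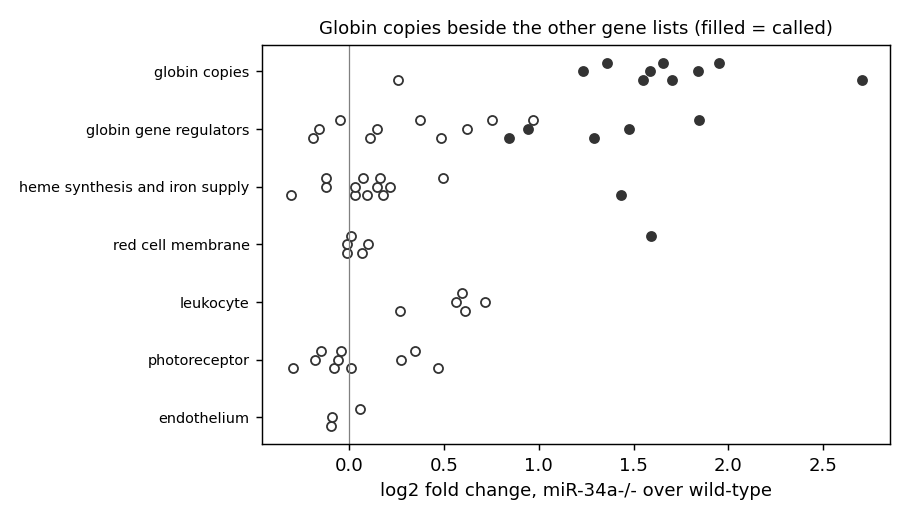
Log2 fold change of *miR-34a-/-* over wild-type (horizontal axis) for the 10 globin copies and for each tested gene of the other lists (rows), with filled points for called genes. The globin copies other than hbbe3 lie from 1.23 to 2.71, whereas the median of the regulator list is 0.62 and that of the heme list 0.09.

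Finally, the genes whose pattern over the 6 libraries was most like that of the globins were looked up among 17419 genes, as a description. The highest Pearson correlations with the summed globin level were those of ANXA3 (0.998), DHRS13 (0.998), HSPA9 (0.997), si:ch211-281l24.3 (0.997) and ENSDARG00000117241 (0.997). Their log2 fold changes ran from 0.11 for HSPA9, a mitochondrial chaperone, which was not called (edgeR adjusted p = 0.407), to 2.46 for si:ch211-281l24.3 (adjusted p = 1.99e-05). For hbbe3 the closest genes were RCC2, PGLS, ROBO3, SMARCD3 and TMEM161A, with correlations of 0.991 to 0.997 and log2 fold changes between -0.07 and -0.02. ROBO3, an axon guidance receptor, had 102.6, 77.6 and 77.6 CPM in *miR-34a-/-* replicates 1, 2 and 3, against 83.0, 89.4 and 94.5 CPM in wild-type replicates 1, 2 and 3. Its order of the libraries was close to that of hbbe3, whereas its range was much narrower. The points of each correlation share the same libraries and scaling.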

How the data were processed

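For 6 libraries the authors deposited raw counts by Ensembl gene in 1 table. Per the labels, reads were trimmed with Trim Galore 0.4.4 and mapped with STAR 2.7.8 to danRer11. The counter, the annotation release, the use of strand and the handling of reads with several matches are not given in the sources used here. Names came from a table that pairs IDs with symbols, which named 29201 IDs. Genes were filtered with filterByExpr, scaled by TMM and tested in edgeR 4.0.16 by its quasi-likelihood test (limma 3.58.1, R 4.3.3), genotype being the only term, with Benjamini-Hochberg adjustment over 19240 genes. A gene was called at an adjusted p under 0.05 and a fold above 1.5. Standard errors in edgeR were back-calculated, as the absolute log2 fold change over the square root of the F statistic of the test. They are therefore approximate, most of all at low counts. CPM are counts per TMM-scaled library size, and their log2 values added a prior count of 1. A second fit of the same genes took the summed counts of the 10 globin copies as library size. Its spread includes that of the pool. Single values were compared by exact two-sided permutation over 20 assignments of the libraries. The labels do not say whether the pools came from separate clutches, so p-values measure only the spread between these pools. Wilson intervals of 95% cover counting error only. Between libraries of each genotype counts varied beyond sampling noise (chi-square per degree of freedom at least 1.78), so each was kept. All 10 copies are named, as are other hemoglobin IDs that passed the filter and called genes of the lists. Genes named beyond that rule were chosen after their values were seen. The 5 genes most like the globins had an average log2 CPM of at least 1. The lists matched 15 of 18, 15 of 20, 6 of 12, 5 of 8, 8 of 10 and 3 of 5 symbols (regulators, heme and iron, membrane, leukocyte, photoreceptor, endothelium), and the rest were not analysed here. The members and lists were chosen with earlier results of these data known. Alternatives were DESeq2 1.42.0 (size factors, Wald test), TMM without hemoglobin genes, other filters, other pools, a replicate block and leaving out each library. The code of the fits was checked on simulated data. There the changed genes all had a mean above 50 counts, most genes were unchanged and all had the same spread. That check therefore does not cover low counts or the p-values of the fit to the pool.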

Additional observations from a re-analysis of the deposited data

How the results depend on the processing

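The number of called copies was 7 to 10 over 12 alternatives, with 7 under the filter at a mean of 50 counts, which did not test hbae4 and hbae5. Leaving out single libraries gave 8 to 10 called copies, 8 when wild-type replicate 1 was dropped and 10, with hbbe3 lower, when *miR-34a-/-* replicate 1 was. It gave 0.10 to 0.19 for the difference in the log2 alpha to beta ratio, 2.84 to 3.10 for the ratio of globin shares of all counts, and 1 to 5 copies that differed from the pool, the low value coming without wild-type replicate 3. The other alternatives kept these 4 results in direction and within 1.5 times for counts. The log2 fold change of hbbe3 ran from -1.61 (without *miR-34a-/-* replicate 1) to 0.75 (without *miR-34a-/-* replicate 3), was -0.11 when wild-type replicate 1 was dropped, and -0.26 under the replicate block. The cause was not tested. Relative to the pool, copies near 0 turned sign: hbae1.2 at -0.0051 and ENSDARG00000087390 at 0.019 with chain sums as pool, and hbae1.3 at 0.0043 with all hemoglobin IDs as pool and from -0.072 to 0.019 without single libraries. Deviations from the genotype mean had correlations of -0.0667, 0.00124 and -0.179 between the libraries of replicate numbers 1, 2 and 3. With 3 libraries per genotype these values cannot tell whether the numbers mark a shared clutch or batch. With the replicate block 9 copies were called and 3 differed from the pool. Over all genes, 362 were called, 523 with no filter, 217 with the filter at 50 counts, 216 with the block and 180 to 1504 without single libraries. Counts per coding length were not run. Depth limits hbae4 and hbae5, for which 3 counts are 0.183 to 0.292 CPM. hbbe3, with as few as 14 counts in a library, passed the filter at a mean of 50 counts (0.25 ± 0.80, standard error). Its share varied beyond counting error, with 95% Wilson intervals of 0.342% to 0.460% in *miR-34a-/-* replicate 1 and 0.0235% to 0.0663% in replicate 2.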
